A study of Homo sapiens with 6 samples.

Results

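The transcripts of 10 genes of the ATR-CHK1 replication checkpoint were measured by RNA-seq in MV4-11 cells, a human AML line with a KMT2A rearrangement and an internal tandem duplication in *FLT3*. The genes were *ATR*, *ATRIP*, *CHEK1*, *CLSPN*, *TIMELESS*, *TIPIN*, *TOPBP1*, *WEE1*, *RAD9A* and *RAD17*, taken by symbol from a table of 20348 genes, and each symbol matched 1 row. The 3 WNK463 samples had received 1 μM of WNK463, an inhibitor of the WNK kinases, for 48 h, and the 3 Control samples were untreated. The labels name no vehicle for the Control group and do not say whether replicates were separate cultures. The p-values therefore set group differences against the spread between these samples, which may be technical. Both groups are the same line at the same time point, with no genetic change made to either.

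When a replication fork stalls, single-stranded DNA coated with RPA recruits the kinase ATR through its partner ATRIP. RAD17 loads a ring-shaped clamp that contains RAD9A onto the DNA, the clamp brings in TOPBP1, and TOPBP1 activates ATR. Claspin (*CLSPN*) and the TIMELESS-TIPIN complex travel with the fork and pass the signal to the kinase CHK1 (*CHEK1*), which acts on CDC25 phosphatases, while WEE1 phosphorylates the cyclin-dependent kinases that CDC25 phosphatases act on. The pathway also slows origin firing in an ordinary S phase, and several of its genes are transcribed mainly around the entry into S phase.

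Total counts lay between 14915745 and 17411780 per sample, and all 10 genes passed the filter on low counts, with 131 to 3654 counts per sample. Levels are given as CPM, the count relative to the TMM-normalized library size, and as TPM, which also divides by transcript length, where genes are compared with each other. The 7 genes set as markers of the line (*PTPRC*, *CD33*, *SPI1*, *FLT3*, *HOXA9*, *HOXA10* and *MEIS1*) were all detected, with a summed level of 931.5 to 1005 CPM in Control and 1064 to 1097 CPM with WNK463. Their directions differed, with *PTPRC*, *HOXA9* and *MEIS1* higher (log2 fold changes 1.20, 0.72 and 0.33) and *CD33*, *FLT3* and *HOXA10* lower (-0.38, -0.20 and -0.14). With total-count scaling *FLT3* was at -0.05 (adjusted p = 0.32 from edgeR) and *HOXA10* at 0.01. T cell markers (*CD3D*, *CD3E*, *CD3G*) summed to at most 0.0638 CPM in any sample, and fibroblast and epithelial markers (*COL1A1*, *COL1A2*, *EPCAM*, *CDH1*) to at most 0.291 CPM. *CD3D*, *CD3G*, *COL1A2*, *EPCAM* and *CDH1* were at 0 in all samples.

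After WNK463, transcripts of *TIPIN*, *CLSPN*, *TIMELESS*, *CHEK1*, *TOPBP1*, *WEE1* and *RAD9A* were lower. Those of *ATR* and *ATRIP* differed little, and that of the clamp loader *RAD17* was higher. With edgeR's quasi-likelihood test at an adjusted p below 0.05, 9 of the 10 genes were lower and 1 was higher. Among all 11973 genes tested, 35.3% were lower and 35.5% were higher by the same rule. When log2 fold changes also had to reach 1 in size, 3 of the 10 were lower, *TIPIN*, *CLSPN* and *CHEK1*, against 5.55% of all genes, and none was higher, against 9.62% of all genes. In 9 genes the 3 WNK463 CPM values lay below the 3 Control values, which held for 36.4% of all genes, and in none did they lie above, which held for 37.1%. The median log2 fold change of the 10 genes was -0.69, against 0.02 over all genes tested.

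**Figure D1:**
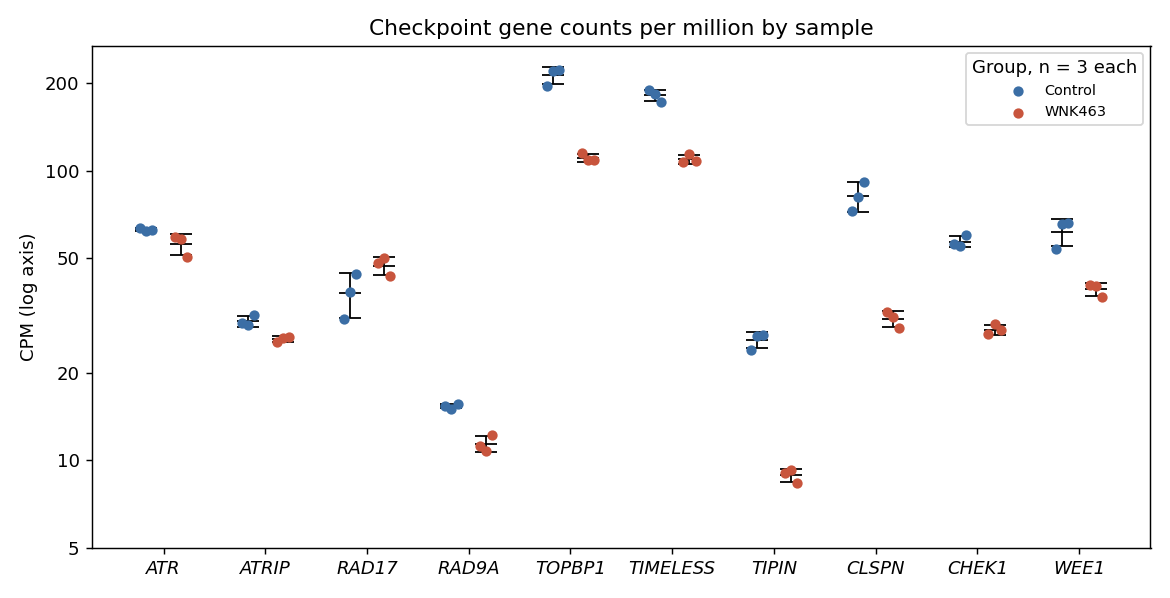
Level of each checkpoint gene in CPM on a log axis, with Control in blue and WNK463 in red. Points are samples, 3 per group, and bars give the mean and SD. *TOPBP1*, *TIMELESS*, *TIPIN*, *CLSPN*, *CHEK1*, *WEE1* and *RAD9A* are clearly separated between the groups, *ATR* and *ATRIP* are separated by a narrow gap, and *RAD17* overlaps.

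*ATR* encodes the apical kinase and is annotated at bases 142449235 to 142578826 of chromosome 3 (GRCh38). Its Control samples had 63.6, 62.0 and 62.2 CPM and its WNK463 samples had 58.8, 58.3 and 50.2 CPM. The groups did not overlap, 2 of the WNK463 samples lay close under the Control samples, and replicate 3 of WNK463 stood lower than the other two. *ATR* was lower by TMM-scaled counts with a log2 fold change of -0.17 (SE 0.07, adjusted p = 0.033 from edgeR), but its log2 fold change was -0.01 with scaling by total counts (adjusted p = 0.87) and 0.07 with limma on log2(TPM + 1) (adjusted p = 0.52). Without replicate 3 of WNK463 it was -0.10 (adjusted p = 0.20).

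*ATRIP*, the partner that ties ATR to RPA, had 29.8, 29.3 and 31.8 CPM in Control and 25.5, 26.5 and 26.7 CPM with WNK463. Its log2 fold change of -0.21 passed the test (SE 0.07, adjusted p = 0.020 from edgeR), with all WNK463 samples below all Control samples. The call was lost with total-count scaling (-0.06, adjusted p = 0.51), on log2(TPM + 1) (-0.12, adjusted p = 0.40), and without Control replicate 3 (adjusted p = 0.061) or WNK463 replicate 1 (adjusted p = 0.063). *ATRIP* lies on chromosome 3 from 48446710 to 48467645 and shares 1515 bases of exon on the same strand with *TREX1*, an exonuclease gene that also fell (log2 fold change -0.37, adjusted p = 0.0022 from edgeR), so reads could be split between them.

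*RAD17*, the loader of the checkpoint clamp, was the gene that rose. It had 30.8, 38.3 and 44.0 CPM in Control and 48.0, 49.8 and 43.2 CPM with WNK463. The Control samples were widely spread, and the lowest WNK463 sample lay just under the highest Control sample. In TPM, the Control samples had 20.2, 26.2 and 31.4 and the WNK463 samples 35.6, 36.3 and 34.5, without overlap. The log2 fold change of the counts was 0.32 (SE 0.10, adjusted p = 0.0077 from edgeR), and it was 0.47 with total-count scaling. Its size depended on single samples, since it was 0.18 without Control replicate 1 (adjusted p = 0.041) and no longer passed without WNK463 replicate 2 (0.27, adjusted p = 0.0502). *RAD17* lies on chromosome 5 from 69369293 to 69414801, and its exons overlap on the other strand with 380 bases of *TAF9*, which fell by 0.73 on the log2 scale, and with 210 bases of *AK6*, which had a log2 fold change of 0.06. The sources used here do not state whether counting used strand, and *RAD17* also has 2 annotated processed pseudogenes.

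*RAD9A*, a subunit of the clamp, fell. Its levels were 15.5, 15.1 and 15.7 CPM in Control and 11.2, 10.8 and 12.2 CPM with WNK463, so the Control samples were within 1 CPM of each other and all WNK463 samples were lower. The log2 fold change was -0.44 (SE 0.10, adjusted p = 9.4e-04 from edgeR). *RAD9A* shares 228 exon bases with *PPP1CA*, a phosphatase gene on the other strand of chromosome 11 with a log2 fold change of -0.48. The loader and the clamp subunit went in opposite directions in this fit.

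*TOPBP1*, the activator of ATR, fell as well. It had 196, 221 and 223 CPM in Control and 115, 108 and 109 CPM with WNK463. Every WNK463 sample lay far below every Control sample, and the log2 fold change was -0.95 (SE 0.06, adjusted p = 7.7e-11 from edgeR).

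*TIPIN* had the largest fall of the 10. This small protein holds TIMELESS at the fork and contacts RPA. The gene shares 579 exon bases on the same strand with *RPL9P25*, a processed pseudogene. Control samples had 24.1, 26.9 and 27.1 CPM, and WNK463 samples had 9.06, 9.24 and 8.36 CPM. Its log2 fold change was -1.55 (SE 0.10, adjusted p = 1.8e-10 from edgeR), which placed it at percentile 1.85 of all log2 fold changes, counted from the most negative. *TIMELESS*, its partner, had 189, 184 and 173 CPM in Control and 107, 114 and 108 CPM with WNK463. Its level dropped by 0.73 on the log2 scale (SE 0.05, adjusted p = 9.5e-10 from edgeR), with no overlap between the groups.

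*CLSPN*, the adaptor that presents CHK1 to ATR, had the smallest p of the 10. Its Control samples had 72.5, 81.2 and 91.3 CPM and its WNK463 samples had 32.6, 31.2 and 28.7 CPM. The Control values spread over a wider range than the WNK463 values, yet the lowest Control sample was far above the highest WNK463 sample. The log2 fold change was -1.41 (SE 0.08, adjusted p = 5.1e-11 from edgeR). By centred log2 CPM over the 6 samples, the genes whose pattern lay nearest to that of *CLSPN* were *RBL1*, *POLE2* and *LDLRAD3*, with root mean square distances of 0.0647, 0.0752 and 0.0893. Their log2 fold changes were -1.36, -1.35 and -1.48, near that of *CLSPN* because the genes were chosen for a similar pattern. *RBL1* encodes a pocket protein of the RB family and *POLE2* a subunit of DNA polymerase epsilon. The function of *LDLRAD3*, which had the largest fall of these neighbours, is not described here. Whether genes with a pattern near that of *CLSPN* share a function was not tested.

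*CHEK1*, the effector kinase, lies on chromosome 11 from 125625136 to 125676255. Its levels were 55.7, 55.1 and 59.8 CPM in Control and 27.2, 29.5 and 28.1 CPM with WNK463. Both groups were tight and far apart, and *CHEK1* fell by 1.01 on the log2 scale (SE 0.07, adjusted p = 3.9e-10 from edgeR). It shares 80 exon bases on the same strand with *STT3A*, which had a log2 fold change of -0.59. *WEE1*, the kinase that restrains CDK1 and CDK2, had 53.8, 65.2 and 65.7 CPM in Control and 40.2, 40.1 and 36.8 CPM with WNK463. Control replicate 1 stood lower than the other two but above all WNK463 samples. *WEE1* had a log2 fold change of -0.66 (SE 0.08, adjusted p = 6.2e-07 from edgeR), and its call was lost with limma on log2(TPM + 1) without a filter on TPM (-0.48, adjusted p = 0.080).

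**Figure D2:**
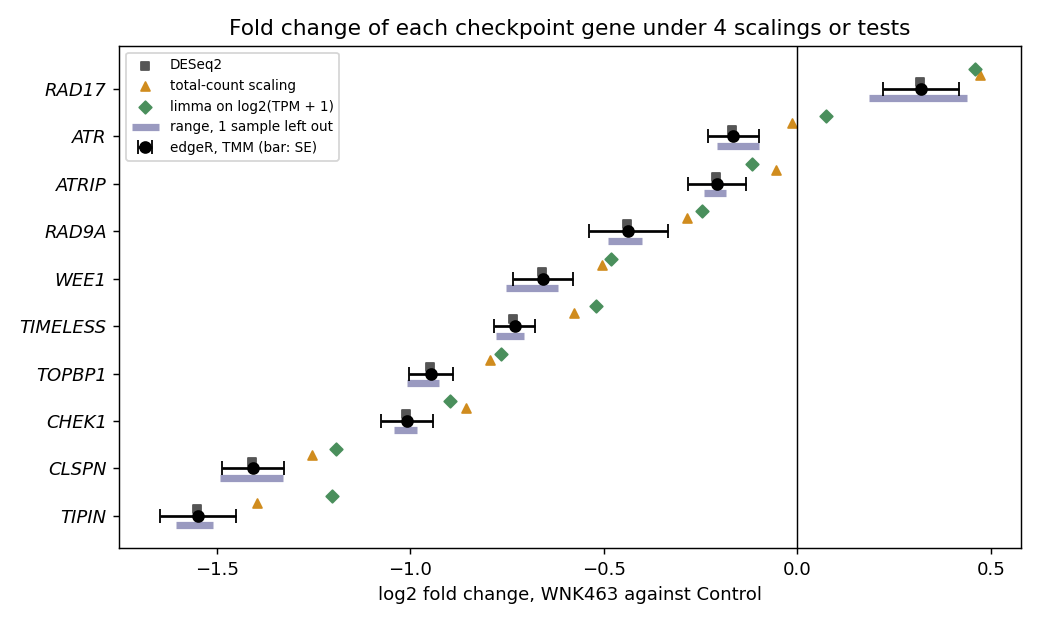
Log2 fold change of each checkpoint gene, WNK463 against Control, with the genes in rows. Black points with bars are edgeR estimates with their SE, squares are DESeq2, triangles are total-count scaling, diamonds are limma on log2(TPM + 1), and thick lines span the 6 fits that each left out a sample. Total-count scaling and TPM move every gene to the right, which brings *ATR* to -0.01 and 0.07, while *TIPIN*, *CLSPN*, *CHEK1*, *TOPBP1*, *TIMELESS*, *WEE1* and *RAD9A* stay below 0 in all of these fits.

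The scaling bears on the small differences. TMM factors were 0.944 to 0.951 in Control and 1.05 to 1.06 with WNK463, and scaling by total counts in their place shifted the median over all genes upward by 0.152 on the log2 scale. It also changed the share of calls that were higher from 50.2% to 63.9%, and limma on log2(TPM + 1) gave 65%. Under total-count scaling 7 of the 10 genes were lower and 1 was higher. The genes that lost their call were *ATR* and *ATRIP*.

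For the genes with the largest falls and for *RAD17*, which rose, the sequence around a transcript start is shown. The *TIPIN* stretch was chosen because it holds an E2F type word, while that of *RAD17* is the first listed. The first listed *TIPIN* stretch, not printed, holds CCAAT. Other *RAD17* windows, not printed, hold CHR type words and CCAAT. The printed stretches thus do not allow marked words to be compared between falling and rising genes. The stretches come from RefSeq on GRCh38.p14 and run from 120 bases before an annotated start to 10 bases after it, 5′ to 3′ on the strand of the gene. They lie at chr1:35769969-35770098 (minus strand) for *CLSPN*, chr15:66356676-66356805 (minus strand) for *TIPIN*, chr3:133661932-133662061 (minus strand) for *TOPBP1*, chr11:125626109-125626238 (plus strand) for *CHEK1*, chr12:56449417-56449546 (minus strand) for *TIMELESS* and chr5:69369698-69369827 (plus strand) for *RAD17*. Capitals mark matches to E2F type words (TTTGGCGC, TTTCGCGC, TTTCCCGC or TTTGCCGC), to CHR type words (TTTGAA or TTCGAA) or to CCAAT, on either strand.
CLSPN: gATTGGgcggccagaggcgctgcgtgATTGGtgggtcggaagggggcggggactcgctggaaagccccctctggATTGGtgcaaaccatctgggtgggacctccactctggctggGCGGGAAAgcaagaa
TIPIN: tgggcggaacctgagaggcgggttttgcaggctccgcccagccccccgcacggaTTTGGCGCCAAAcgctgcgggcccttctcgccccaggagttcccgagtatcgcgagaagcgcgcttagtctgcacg
TOPBP1: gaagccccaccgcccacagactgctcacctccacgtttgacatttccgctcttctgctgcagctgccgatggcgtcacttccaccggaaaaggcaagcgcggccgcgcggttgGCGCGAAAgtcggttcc
CHEK1: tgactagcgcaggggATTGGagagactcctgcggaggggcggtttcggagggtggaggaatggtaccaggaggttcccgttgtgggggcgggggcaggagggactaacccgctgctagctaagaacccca
TIMELESS: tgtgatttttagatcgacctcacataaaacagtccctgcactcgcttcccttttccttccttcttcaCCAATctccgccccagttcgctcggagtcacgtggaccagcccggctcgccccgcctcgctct
RAD17: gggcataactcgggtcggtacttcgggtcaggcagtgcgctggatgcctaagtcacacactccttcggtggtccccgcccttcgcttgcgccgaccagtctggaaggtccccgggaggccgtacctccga

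Of the 10 genes, 9 had a window in the RefSeq table, and *WEE1* was not matched. Windows of 250 bases before to 50 after each start were searched on both strands. An E2F type word was found in 3 of the 9, *CLSPN*, *TIPIN* and *TOPBP1*, against 3.99% of 27305 genes in the table. The *CLSPN* match was to TTTCCCGC, a word added after the promoters were seen. The words planned beforehand matched *TIPIN* and *TOPBP1* alone. In *CLSPN* the reverse complement of TTTCCCGC runs from base -5 to base 3 around the start, and in *TOPBP1* that of TTTCGCGC runs from base -7 to base 1. *TIPIN* has 2 annotated starts, and TTTGGCGC was found before the downstream one, where 2 of its 6 GENCODE transcripts start within 100 bases and 4 start near the other, on each strand in overlapping positions from base -66 to base -55. *TIMELESS*, *CHEK1*, *RAD9A*, *ATR* and *ATRIP*, which were also called lower, held no E2F type word in these windows. A CHR type word was found in *RAD17* alone of the 9, against 19.5% of all genes, and before 1 of its 3 starts, which is not the one printed. CCAAT, also added after the promoters were seen, was found in 7 of the 9, against 39.7% of all genes. For words added this way the shares are not an even comparison, and genes with more starts had more windows to match. These matches describe letters in the windows and do not show binding.

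The order of the levels changed between the groups on the TPM scale, which allows genes to be compared. In Control the order from high to low was *TOPBP1* (72.8 ± 9.96 TPM), *TIMELESS* (72.2 ± 3.45), *CHEK1* (51.1 ± 2.50), *WEE1* (45.6 ± 11.5), *TIPIN* (40.2 ± 2.69), *CLSPN* (27.7 ± 3.71), *RAD17* (25.9 ± 5.60), *ATRIP* (24.8 ± 3.78), *RAD9A* (16.1 ± 0.859) and *ATR* (14.7 ± 0.0492; SD, n = 3 for each). The sample ranges of neighbours overlapped for *TOPBP1* and *TIMELESS*, for *CHEK1* and *WEE1*, for *WEE1* and *TIPIN*, for *CLSPN* and *RAD17*, and for *RAD17* and *ATRIP*. With WNK463 the order was *TIMELESS* (50.03 ± 2.19 TPM), *TOPBP1* (42.2 ± 0.885), *RAD17* (35.5 ± 0.879), *WEE1* (31.9 ± 4.19), *CHEK1* (27.1 ± 3.16), *ATRIP* (22.7 ± 2.72), *TIPIN* (16.9 ± 1.52), *ATR* (15.6 ± 1.80), *RAD9A* (13.4 ± 0.457) and *CLSPN* (11.5 ± 1.09; SD, n = 3 for each). Here the neighbours *WEE1* and *CHEK1*, *CHEK1* and *ATRIP*, *TIPIN* and *ATR*, and *ATR* and *RAD9A* overlapped. *CLSPN* moved from rank 6 to rank 10, and *RAD17* from rank 7 to rank 3.

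Ratios of 2 genes within a sample do not depend on the scaling between samples. The TPM ratio of *TIMELESS* to *TIPIN*, the subunits of a single complex, was 2.03, 1.74 and 1.65 in Control and 3.23, 3.01 and 2.67 with WNK463, so every WNK463 sample had more *TIMELESS* transcript per *TIPIN* transcript. The mean log2 ratio was 0.85 ± 0.16 in Control and 1.57 ± 0.14 with WNK463, a difference of 0.72 (SD, n = 3 each). The exact permutation test, two-sided, gave p = 0.10, which is the lowest value possible with groups of 3. Over the 6 ratios tested its adjusted p was 0.12, and no ratio could reach a threshold of 0.05 in this design.

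The ratio of *RAD17* to *RAD9A* was 1.19, 1.63 and 2.06 in Control and 2.56, 2.80 and 2.60 with WNK463, a log2 difference of 0.74. *TOPBP1* to *ATR* went the other way, from 4.22, 5.11 and 5.52 to 2.71, 2.39 and 3.09, a log2 difference of -0.86. *CHEK1* to *CLSPN* was 2.06, 1.79 and 1.73 in Control and 2.20, 2.50 and 2.34 with WNK463, a log2 difference of 0.34. In these 3 ratios the groups did not overlap (exact permutation p = 0.10 and adjusted p = 0.12 for each).

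*CHEK1* to *WEE1* had ratios of 1.5, 0.919 and 1.09 in Control and 0.784, 0.884 and 0.889 with WNK463, a log2 difference of -0.43 with no overlap but with a narrow gap (exact permutation p = 0.10, adjusted p = 0.12). The ratio of *ATR* to *ATRIP* overlapped between the groups, at 0.661, 0.640 and 0.505 in Control and 0.619, 0.850 and 0.616 with WNK463 (log2 difference 0.20, exact permutation p = 0.60, adjusted p = 0.60). That difference was 0.05 without WNK463 replicate 2, 0.08 without Control replicate 3 and 0.04 from counts in place of TPM.

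**Figure D3:**
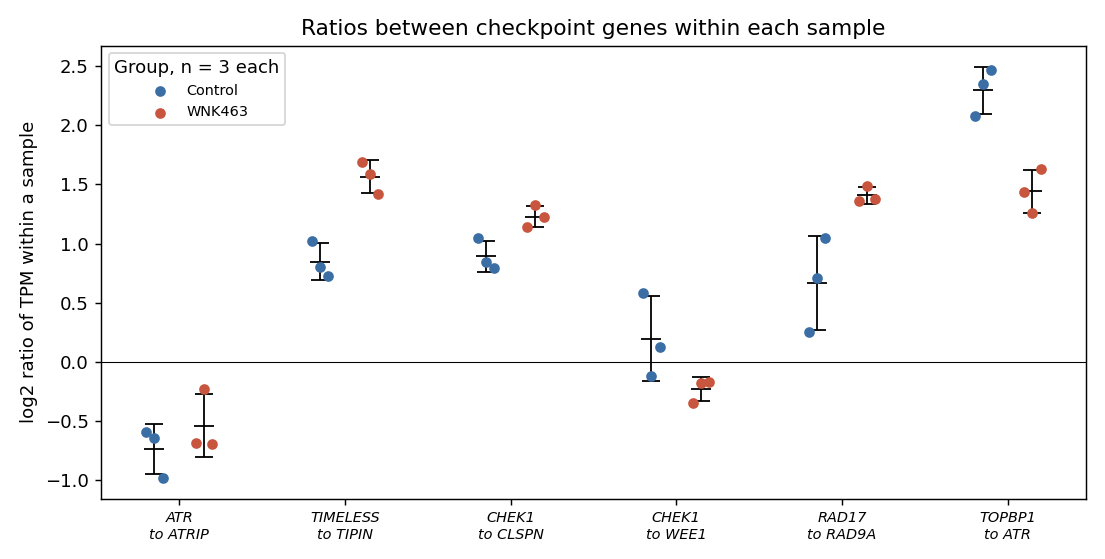
Log2 ratio of TPM between pairs of checkpoint genes within each sample, with Control in blue and WNK463 in red. Points are samples, 3 per group, and bars give the mean and SD. The ratio of *TIMELESS* to *TIPIN* and of *RAD17* to *RAD9A* are higher in all WNK463 samples, that of *TOPBP1* to *ATR* is lower, and that of *ATR* to *ATRIP* overlaps.

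TPM depends on the effective length that the authors' quantification gave each gene in each sample, which moves with the mix of transcripts. Count divided by TPM, relative to the median gene of the sample, served as an index of that length. For *WEE1* it was 1.11, 0.826 and 0.921 in Control and 0.902, 0.901 and 1.04 with WNK463, a spread over the 6 samples wider than in 93.1% of 9170 genes with at least 100 counts per sample. This sample-to-sample shift accompanied *WEE1* TPM values of 32.7, 54.8 and 49.3 in Control, which overlapped with 34.3, 34.3 and 27.0 TPM in WNK463 although the CPM values did not. Its part in that overlap was not tested. For *ATR* the index was 2.93, 2.91 and 2.92 in Control and 2.85, 2.61 and 2.81 with WNK463, lower in all WNK463 samples. *ATRIP* and *TIPIN* were nearly as variable as *WEE1*, with ranges wider than in 92.8% and 91.2% of the genes. The *TIPIN* index was 0.439, 0.446 and 0.450 in Control and 0.458, 0.410 and 0.353 with WNK463, and it enters the TPM ranks and the ratio of *TIMELESS* to *TIPIN*. The range of *CLSPN* was wider than in 52.9% of the genes and that of *TIMELESS* wider than in 34.2%. The *TIMELESS* index was also lower in all WNK463 samples, at 1.678, 1.680 and 1.699 against 1.700, 1.747 and 1.747 in Control. The share of all genes with such a separation is not given here.

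Other genes of the pathway were described from 7 lists that together held 51 genes, of which 50 were tested. At an adjusted p below 0.05 from edgeR, 34 were lower and 8 were higher, and the median log2 fold change was -0.43. Over all genes tested the shares were 35.3% lower and 35.5% higher. With total-count scaling 28 of the 50 were lower and 8 were higher, against 26.1% and 46.1% of all genes. *HUS1B* did not pass the filter on low counts.

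All 7 genes of RPA and of the clamp loader's small subunits were lower, against 35.3% of all genes, with a median of -0.94. *RFC5*, *RPA1* and *RFC2* had log2 fold changes of -1.67, -0.94 and -1.14. *RPA2* was at the other end of the list with -0.13 (adjusted p = 0.028 from edgeR), which turned to 0.02 with total-count scaling. With that scaling 5 of the 7 were lower, against 26.1% of all genes. Among the 5 tested genes of the clamp and of other ATR activators, 1 was lower, 1 was higher and 3 did not pass. Of all genes, 35.3% were lower and 35.5% higher. *RAD1*, the clamp subunit that joins RAD9A, fell by 0.34, *HUS1*, the third subunit, had -0.18 (adjusted p = 0.094 from edgeR), and *RAD9B*, a paralog of *RAD9A*, rose by 0.75 from a low level of 3.46 to 5.82 CPM. *ETAA1*, which activates ATR independently of TOPBP1, had a log2 fold change of -0.05 (adjusted p = 0.77 from edgeR), or 0.11 with total-count scaling.

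Of 10 genes for targets of CHK1 and WEE1, their cyclins and the related kinase PKMYT1, 9 were lower, against 35.3% of all genes. Their median was -0.74. With total-count scaling 7 of the 10 were lower, against 26.1% of all genes. The kinase gene *CDK2* had a log2 fold change of -1.43, *PKMYT1*, which encodes the membrane-bound relative of WEE1, had -1.57, and *CDC25A*, the phosphatase that CHK1 marks for destruction, had -1.11. *CDC25B* did not pass, with -0.03 (adjusted p = 0.69 from edgeR), or 0.13 with total-count scaling. *CDK1* and *CCNB1*, the pair that drives mitosis, fell by 0.31 and 0.23, and neither passed with total-count scaling, at -0.16 and -0.08 (adjusted p = 0.069 and 0.13 from edgeR).

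Of 8 genes that control the turnover of CHK1 and claspin, 4 were lower and 2 were higher, against 35.3% and 35.5% of all genes. *DTL*, a substrate receptor of a ubiquitin ligase active in S phase, *PLK1*, which marks claspin for destruction, and *USP20*, which removes ubiquitin from claspin, had log2 fold changes of -1.61, -0.69 and -0.46. *BTRC*, the F-box protein that recognizes phosphorylated claspin, rose by 0.46, and *FBXO6*, an F-box protein of CHK1 turnover, rose by 0.31. Of 5 fork protection genes, 3 fell and 2 rose, and 1 rose when Control replicate 2, Control replicate 3 or WNK463 replicate 1 was left out. Of all genes, 35.3% were lower and 35.5% were higher. *WDHD1*, *HLTF* and *DONSON* had -1.25, -0.88 and -0.77, while *ZRANB3* and *SMARCAL1* had 0.83 and 0.21.

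In the parallel ATM-CHK2 branch 5 of 9 genes were lower and 3 were higher, against 35.3% and 35.5% of all genes, and the median log2 fold change was -0.31. *MDC1* and *H2AX*, which mark chromatin around breaks, had log2 fold changes of -1.15 and -1.19. *MRE11*, the nuclease subunit of the break sensor, rose by 0.92, and *ATM* and *NBN* rose by 0.23 and 0.22. *RAD50* of the same list did not pass, with -0.01 (adjusted p = 0.89 from edgeR), or 0.14 with total-count scaling. In the set of genes for large PI3K-like kinases and their assembly, 5 of 6 were lower, against 35.3% of all genes. *PRKDC*, the catalytic subunit of DNA-PK, *RUVBL1* and *TELO2*, a chaperone on which ATR itself depends, had -1.06, -0.89 and -1.27, and *TTI2* did not pass with 0.07 (adjusted p = 0.55 from edgeR).

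**Figure D4:**
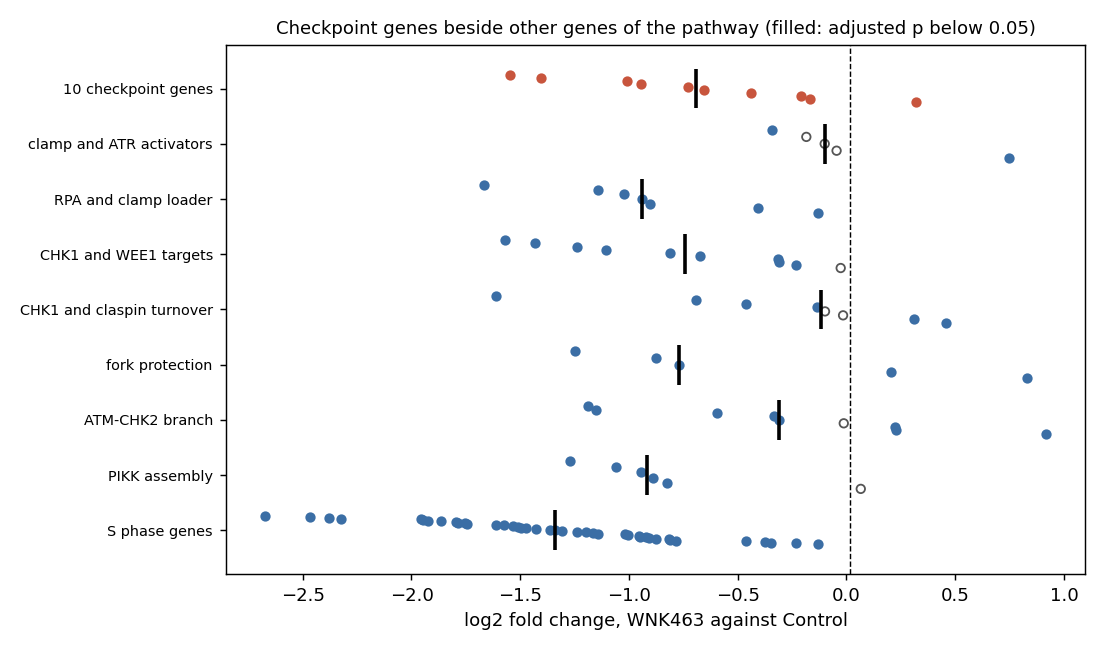
Log2 fold change, WNK463 against Control, of the 10 checkpoint genes (red) and of the other pathway lists and S phase genes (blue), 1 point per gene. Filled points had an adjusted p below 0.05 from edgeR, black bars are list medians, and the dashed line is the median of all genes tested, 0.02. RPA and clamp loader genes lie to the left with a median of -0.94, the clamp and ATR activators lie near the dashed line with -0.10, and S phase genes lie farthest to the left with -1.34.

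Genes that mark S phase moved with these results. All 41 genes of an S phase list were lower, against 35.3% of all genes, with a median log2 fold change of -1.34. With total-count scaling 39 were lower, against 26.1% of all genes. The list excludes the 10 checkpoint genes but shares *DTL*, *CCNE2*, *RFC2* and *RPA2* with the lists above. The summed level of the 41 genes was 7268, 7491 and 7576 CPM in Control and 2927, 2894 and 2932 CPM with WNK463. *MCM5*, *MCM4* and *CDCA7* had the smallest p of the list. In bulk samples, fewer cells in S phase and less RNA per cell cannot be told apart, and the part of the S phase genes in the fall of the checkpoint genes was not tested.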

How the data were processed

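RNA-seq of 3 Control and 3 WNK463-treated MV4-11 samples was used, with groups and replicate numbers from the sample titles. The table deposited by the authors gives an estimated count per gene and sample as whole numbers, not normalized, with 62 counts of 0 beside a TPM above 0. The authors also deposited TPM. Columns of group means and of the authors' own comparison were not used. The submitters' processing notes name fastp, Bowtie2, HISAT2, StringTie, RSEM, DESeq2 and edgeR and the build GRCh38, without versions or roles.

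Counts were filtered with filterByExpr, scaled by TMM and tested with edgeR 4.0.16 (quasi-likelihood test, no replicate block) in R 4.3.3, with Benjamini-Hochberg adjustment over 11973 genes. Each SE was obtained as the size of the log2 fold change over the root of its F statistic. The common dispersion corresponded to 5.21% variation between replicates, and depth limits low genes most. Pairs of replicates differed by more than sampling noise (chi-square per degree of freedom 2.68 to 7.40). Ratios were tested with an exact two-sided permutation test (scipy 1.17.1). Alternatives were DESeq2 1.42.0, total-count scaling, other count filters, a fold limit, limma 3.58.1 on log2(TPM + 1) and log2(TPM + 0.1), the replicate block, and each sample left out. The edgeR, limma and DESeq2 steps were checked on simulated counts.

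The genes and lists were chosen with earlier results of these data known. Named from each list were the 3 genes with the smallest p, untested genes and genes that went against the majority. *RPA2*, *ETAA1*, *CDC25B*, *CDK1*, *CCNB1* and *RAD50* were added after their values were seen, as were the words TTTCCCGC, TTTGCCGC and CCAAT after the promoters were seen. Gene positions and exon overlaps come from GENCODE 29 (GRCh38). Overlaps not described above were on the other strand for *ATR* (2048 bases, AC109992.1), *CLSPN* (280 bases, AL354864.1) and *TOPBP1* (36 bases, *TFP1*). *WEE1* shares 104 bases with a snoRNA on the same strand. Of RefSeq windows with several starts, the first listed is printed, except for *TIPIN*, where the window with an E2F type word is printed. Protein sequences were not used here. The result of 1 list of markers of another cell type is not reported here.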

Additional observations from a re-analysis of the deposited data

How the results depend on the processing

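Among the 10 checkpoint genes, 127 of 140 combinations of a gene and an alternative kept the direction and the side of the threshold, 10 lost the call and 3 changed sign. The 3 were *ATR* with limma, with log2 fold changes of 0.0734 on log2(TPM + 1), with or without a filter on TPM, and 0.0774 on log2(TPM + 0.1), and none passed (adjusted p = 0.52 to 0.57). The log2 fold changes of *TIPIN*, *CLSPN*, *CHEK1*, *TOPBP1*, *TIMELESS* and *RAD9A* passed in all 14 alternatives, ranging from -1.61 to -1.20, -1.49 to -1.19, -1.04 to -0.86, -1.01 to -0.76, -0.78 to -0.52 and -0.49 to -0.25. *WEE1* lost its call on log2(TPM + 1) without a filter (-0.48, adjusted p = 0.080). With log2 fold changes required to reach 1 in size, 3 checkpoint genes were lower and 0 higher, and over all genes 665 were lower and 1152 higher, in place of 4222 and 4251. Limma called 2643 genes lower on log2(TPM + 1), 2634 on log2(TPM + 0.1) and 2635 without a filter, and the cause was not tested. With 1 sample left out in turn, 0 to 1 checkpoint genes were higher and 8 to 9 were lower. All 48 combinations of a ratio and an alternative kept their direction, with *ATR* to *ATRIP* between 0.04 and 0.28, *TIMELESS* to *TIPIN* between 0.66 and 0.82 and *CHEK1* to *WEE1* between -0.59 and -0.24 (the last without Control replicate 1). Of 144 combinations of a pathway list count and an alternative, 20 gave another count, and 4 of these differed by more than 1.5 times, all with 1 sample left out. The clamp and activator list had 2 lower genes in place of 1 without Control replicate 1, and the fork protection list had 1 higher gene in place of 2 without Control replicate 2, Control replicate 3 or WNK463 replicate 1. Deviations from the group means were not correlated between samples of equal replicate number (correlations 0.023, -0.018 and -0.048). With so few samples this does not exclude a pairing, which the labels do not describe. The replicate block gave 4175 lower and 4223 higher genes, with 9 and 1 among the checkpoint genes.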
